A study of Mus musculus with 6 samples.

Results

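The 9 genes described here, Mbp, Mog, Mag, Mobp, Cnp, Cldn11, Mal, Ugt8a and Opalin, encode proteins and 1 lipid-making enzyme of the myelin sheath and are characteristic of mature oligodendrocytes. They were chosen by name, with earlier results of these data known. All 9 had a probe set assigned to that gene alone, 1 each, among the 19938 genes measured. The RNA came from forebrain cortex of adult C57BL/6 mice, and each animal had 1 whole-transcript array. In the 3 animals labelled Dicer KO, with the genotype CamKII-Cre/+;Dicer flox/flox, Cre recombinase driven by CamKII was meant to remove Dicer, the nuclease from which mature microRNAs come, from cells whose Dicer alleles are both floxed. The 3 littermate controls carried either the Cre transgene with 1 floxed allele (CamKII-Cre/+;Dicer flox/+) or both floxed alleles with no transgene (+/+;Dicer flox/flox), and which of these each control carried is not given in the labels. The labels also give no age beyond adult and no sex.

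Myelin is the stack of oligodendrocyte membrane wrapped around axons. Its compact part is held together by basic and lipid-bound proteins and is rich in galactolipids, its non-compact channels are kept open by cytoskeleton-linked proteins, and glycoproteins at its surfaces face the axon or the outside. The CamKII promoter is used to drive Cre in excitatory forebrain neurons, and oligodendrocytes are not among the cells that the driver is meant to reach. In which cells Dicer was removed was not measured here. In whole cortex, fewer oligodendrocytes and less RNA per oligodendrocyte cannot be told apart.

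Median log2 values of the 6 arrays lay at 7.13 to 7.22. Dicer1 read 9.58, 9.68 and 9.46 in the arrays labelled Dicer KO, against 9.17, 9.21 and 9.18 in the controls. The targeted gene was therefore not lower in the arrays carrying the KO label (limma adjusted p = 0.102), and directions below are those of the labelled groups. Control array 1 stood apart in genes typical of olfactory bulb: Eomes, a transcription factor, read 5.29, 5.55 and 5.32 in the labelled KO arrays against 7.75, 5.51 and 5.87 in the controls. Labelled KO array 3 stood apart in the means of astrocyte, microglia and striatum genes, though not in those of the myelin genes. Gfap, the astrocyte intermediate filament, was at 10.4 there and at 9.10 and 8.92 in labelled KO arrays 1 and 2. Labelled KO arrays 1 and 3 and control array 2 came from males and the other 3 from females, by Xist and the Y-linked gene Eif2s3y.

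None of the 9 myelin genes passed the test of animals labelled Dicer KO against littermate controls. Over all genes, 0.281% passed an adjusted p under 0.05 in limma, a linear model with a spread estimate shared across genes, and 14.4% had an unadjusted p under 0.05. For the 9 myelin genes, no unadjusted p was under 0.05, the lowest being 0.172, and adjusted p lay between 0.553 and 0.974. The difference, labelled KO minus control on the log2 scale, was above 0 for 6 genes and below 0 for 3, where 47.3% of all genes were above 0, with a median of 0.16, beside a median of -0.0092 over all genes. The labelled KO and control arrays overlapped for all 9, while over all genes 20.3% showed no overlap between the groups.

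**Figure D1:**
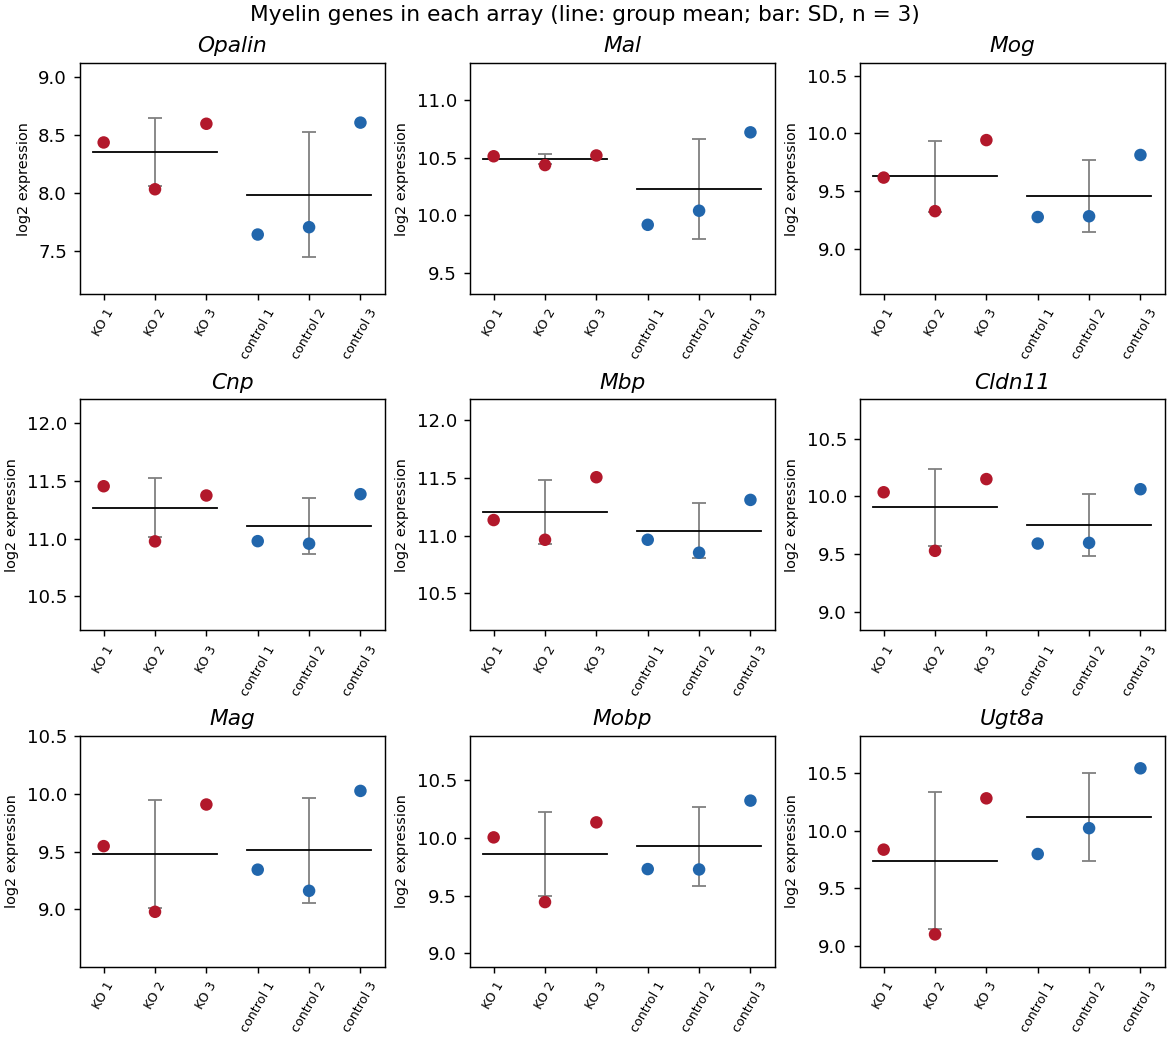
Log2 expression of each of the 9 myelin genes (y axis, each panel spanning the same 2 units) in the 3 arrays labelled Dicer KO (red, left) and the 3 controls (blue, right), with the group mean as a line and the SD as a grey bar (n = 3). In every panel control array 3 is the highest control and labelled KO array 2 the lowest labelled KO array, and the groups overlap.

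Opalin and Mal, a pair of transmembrane proteins, had the largest positive differences of the 9. Opalin, a transmembrane glycoprotein found in oligodendrocytes of the central nervous system, read 8.44, 8.03 and 8.60 in the labelled KO arrays and 7.64, 7.70 and 8.61 in the controls. Control array 3 was as high as labelled KO array 3, while the other controls lay under all labelled KO arrays. The difference was 0.37 ± 0.25 (SE), 1.29-fold, with a 95% interval from -0.20 to 0.94 on the log2 scale, and adjusted p was 0.553.

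Mal, a proteolipid that takes part in sorting proteins to the myelin membrane, read 10.51, 10.44 and 10.52 in the labelled KO arrays, against 9.92, 10.04 and 10.72 in the controls. The labelled KO arrays differed little from each other (SD 0.046, n = 3) and the controls much more (SD 0.43, n = 3), with control array 3 above every other array. The difference of 0.26 ± 0.18 (SE; adjusted p = 0.575), 1.20-fold, had a 95% interval from -0.16 to 0.68.

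The structural and cytoskeletal members were each within about their standard error of the controls. Mbp, the basic protein that binds the inner faces of compact myelin membranes, read 11.14, 10.96 and 11.51 in the labelled KO arrays and 10.96, 10.85 and 11.31 in the controls. Its difference was 0.16 ± 0.16 (SE; adjusted p = 0.715), and the 95% interval of -0.20 to 0.52 spans ratios from 0.868 to 1.44. Cnp, the enzyme that keeps cytoplasmic channels in myelin open, read 11.45, 10.98 and 11.37, against 10.98, 10.96 and 11.38 in the controls, a difference of 0.16 ± 0.16 (SE). Labelled KO array 2 and control arrays 1 and 2 were nearly alike for Cnp, and the other 3 arrays lay together above them.

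Cldn11, the claudin that forms tight junctions between myelin layers, read 10.04, 9.53 and 10.15 in the labelled KO arrays and 9.59, 9.60 and 10.06 in the controls, a difference of 0.15 ± 0.18 (SE). Mobp, another basic protein of compact myelin, read 10.005, 9.44 and 10.13 in the labelled KO arrays and 9.73, 9.73 and 10.32 in the controls, a difference of -0.065 ± 0.21 (SE). Labelled KO array 2 gave the lowest of the 6 values for both genes. The 95% interval reached from -0.26 to 0.57 for Cldn11 and from -0.54 to 0.41 for Mobp, so that moderate changes either way were not excluded by these arrays.

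Neither surface glycoprotein passed, and only Mag changed sign with 1 array left out. Mog, an immunoglobulin-like protein on the outermost myelin surface, read 9.62, 9.33 and 9.94 in the labelled KO arrays and 9.28, 9.28 and 9.81 in the controls, a difference of 0.17 ± 0.19 (SE; adjusted p = 0.735). Mag, a sialic acid-binding adhesion protein of the innermost layer facing the axon, read 9.55, 8.98 and 9.91 in the labelled KO arrays, against 9.34, 9.16 and 10.03 in the controls. For Mag the difference of -0.032 ± 0.26 (SE; adjusted p = 0.974) was small beside spreads of 0.47 and 0.46 (SD, n = 3 each) in the labelled KO and control arrays.

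Ugt8a, the enzyme that makes galactocerebroside, the main galactolipid of myelin, had the most negative difference of the 9. It read 9.84, 9.10 and 10.28 in the labelled KO arrays and 9.80, 10.02 and 10.54 in the controls. Labelled KO array 2 lay 0.696 under the lowest control, and the other labelled KO arrays lay within the range of the controls. The difference was -0.38 ± 0.28 (SE; adjusted p = 0.602), a ratio of 0.768, with a 95% interval from -1.02 to 0.26.

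**Figure D2:**
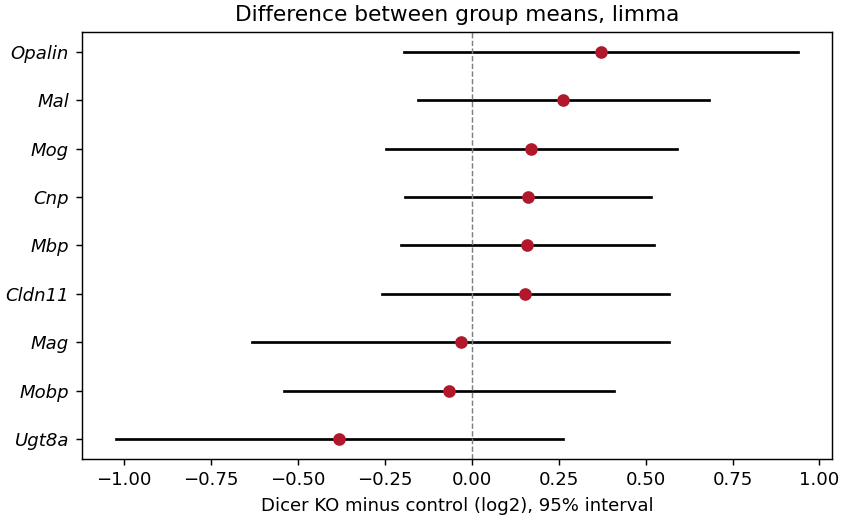
Difference between group means (labelled Dicer KO minus control, log2, x axis) for the 9 myelin genes, with 95% intervals of the limma model as lines. Every interval includes 0, from Opalin at 0.37 at the top to Ugt8a at -0.38 at the bottom.

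The 9 genes varied together between animals of 1 group. For each of the 9, the difference between group means was smaller than the range of the 3 controls, and for 8 it was also smaller than the range of the 3 labelled KO arrays. The exception was Mal, whose labelled KO arrays spanned 0.083 beside a difference of 0.26. The median within-group SD was 0.31 over the 9 genes, from 0.25 to 0.50, beside 0.13 over all genes. Control array 3 was the highest control for 9 of 9 genes, and it lay 0.40 to 0.94 above the mean of the other controls. Among the labelled KO arrays, array 2 was the lowest for 9 of 9, and array 3 was the highest for 8, with Cnp highest in array 1. The pattern of control array 3 highest among controls and labelled KO array 2 lowest among labelled KO arrays was seen in 19.4% of all genes. Averaged over the 9 genes, with each gene's control mean at 0, the labelled KO arrays stood at 0.16, -0.26 and 0.37 and the controls at -0.21, -0.20 and 0.41. Each group thus held at least 1 animal with high and 1 with low myelin transcripts. Females were found at both ends, in control array 3 and in labelled KO array 2. Labelled KO array 2 was the only female of its group, so sex and animal cannot be told apart there.

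The genes whose profiles over the 6 arrays lay closest to the mean profile of the 9 were found by the root-mean-square log2 difference after centring. The median of this difference was 0.289 over all genes, and the 9 genes themselves ranged from 0.0641 for Mog and 0.0647 for Cldn11 to 0.291 for Ugt8a. Outside the 9, Plekhh1, which encodes a pleckstrin homology domain protein, was closest at 0.0561, followed by the lipid droplet coat gene Plin3 at 0.0602 and the transcription factor gene Jun at 0.0617. The others of the nearest 8 were Spata19 at 0.0703, 1700013H16Rik at 0.0730, the mitochondrial carrier gene Ucp3 at 0.0733, Dthd1 at 0.0754 and the protease inhibitor gene Serpinb1a at 0.0766. None of these 8 was in the oligodendrocyte lists, which need not hold every gene that these cells express. Spata19, Dthd1, 1700013H16Rik and Ucp3 read below the array medians in every array. With 6 arrays such nearness is a description only.

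Taking the shared movement out, by setting each gene against the mean of the 9 in the same array, left Ugt8a and Opalin at opposite ends. On this relative log2 scale Ugt8a stood at -0.45, -0.76 and -0.21 in the labelled KO arrays, against -0.11, 0.10 and 0.013 in the controls, and Mobp at -0.084, -0.22 and -0.16, against 0.013, -0.0020 and -0.011. Opalin stood at 0.29, 0.31 and 0.25 in the labelled KO arrays and at -0.14, -0.083 and 0.22 in the controls. For these 3 genes the labelled KO and control arrays did not overlap, with a narrow gap for Opalin. The same scale separated the groups for 1.89% of all genes, a share that cannot be set against the 9, because their own mean was subtracted. Mal relative to the mean of the 9 overlapped between the groups, at 0.12, 0.47 and -0.073 in the labelled KO arrays and -0.098, 0.012 and 0.086 in the controls. This comparison was chosen after the values were seen and carries no test.

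**Figure D3:**
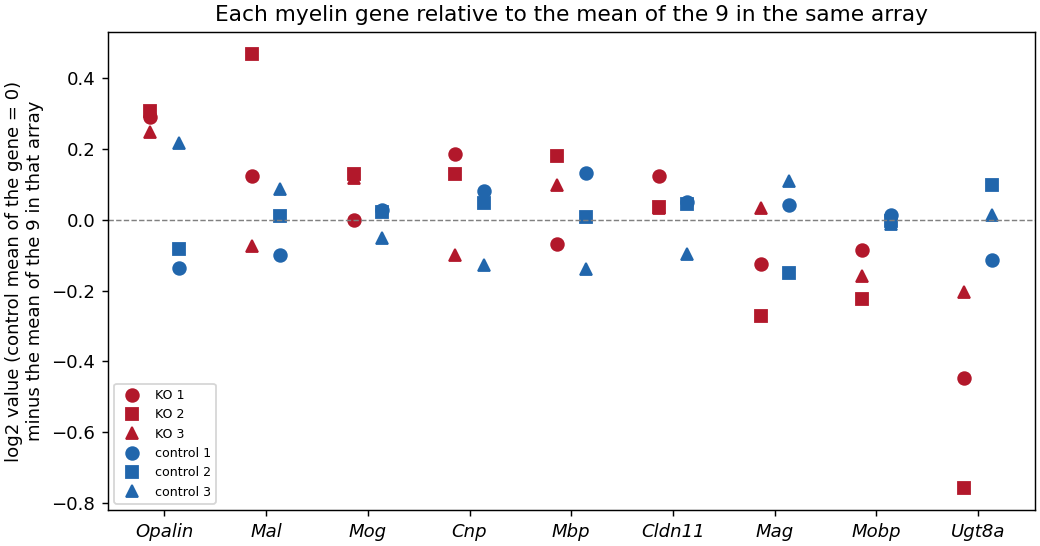
Log2 value of each of the 9 myelin genes, with its control mean at 0, minus the mean of the 9 in the same array (y axis), for the labelled Dicer KO arrays (red, left of each gene's position) and the controls (blue, right). Ugt8a lies between -0.76 and -0.21 in the labelled KO arrays and between -0.11 and 0.10 in the controls, and Mobp shows a smaller gap of the same direction.

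Single arrays set the size of the differences, and for Mag and Mobp the direction. Without control array 3, Mal was at 0.51 (adjusted p = 0.134) and Opalin at 0.68 (adjusted p = 0.178), and Ugt8a was at -0.17. Without array 3 of both groups, Mal was at 0.49 with an adjusted p of 0.0754, the nearest that any of the 9 came to the threshold in the alternatives run, and Opalin was at 0.56 (adjusted p = 0.109). Without labelled KO array 2, Ugt8a was at -0.062, and its value was -0.65 when labelled KO array 3 was dropped (adjusted p = 0.241). Mag was at 0.22 and Mobp at 0.14 without labelled KO array 2, at 0.23 and 0.13 without control array 3, and as low as -0.25 and -0.20 with another array left out. The median over the 9 genes lay between 0.015 (labelled KO array 3 left out) and 0.30 (control array 3 left out). With labelled KO array 3 and control array 1 both dropped it was -0.048.

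**Figure D4:**
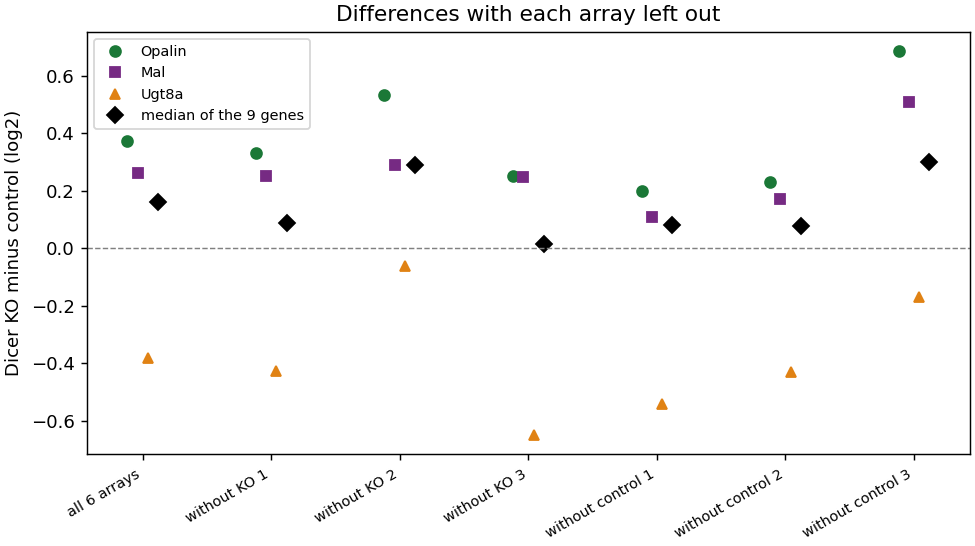
Difference (labelled Dicer KO minus control, log2, y axis) for Opalin, Mal, Ugt8a and the median of the 9 myelin genes, with all 6 arrays and with each array left out in turn (x axis). The median stays between 0.015 and 0.30, and Ugt8a reaches -0.062 without labelled KO array 2.

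Promoter sequences are shown for 5 of the 9 genes, because the 9 moved together over the arrays while Opalin, Mal and Ugt8a lay at the ends of their range. RefSeq windows ran from 250 bases before to 50 after the annotated start, on GRCm38.p6. They were used for 8 of the 9 genes, with 3 starts for Mag and 1 for each of the others. Mbp was left out of the promoter search. Both strands were searched for ACAAAG, a core bound by SOX proteins such as SOX10, and for CTGGNAC, used here for the core bound by MYRF. Any base was accepted at N, so a CTGGNAC match need not be a sequence that MYRF binds. Matches are in capitals in the 5′ to 3′ sequence of the gene's strand. Cnp and Opalin carry both and Mobp carries ACAAAG matches alone, while Mal and Ugt8a carry neither.
Opalin, chr19:41077064-41077363, minus strand: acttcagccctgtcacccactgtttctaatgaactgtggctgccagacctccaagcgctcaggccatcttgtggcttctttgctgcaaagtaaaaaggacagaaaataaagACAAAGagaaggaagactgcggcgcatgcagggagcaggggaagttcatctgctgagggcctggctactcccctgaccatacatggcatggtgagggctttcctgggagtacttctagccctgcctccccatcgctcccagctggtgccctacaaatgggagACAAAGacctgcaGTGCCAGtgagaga
Cnp, chr11:100574689-100574988, plus strand: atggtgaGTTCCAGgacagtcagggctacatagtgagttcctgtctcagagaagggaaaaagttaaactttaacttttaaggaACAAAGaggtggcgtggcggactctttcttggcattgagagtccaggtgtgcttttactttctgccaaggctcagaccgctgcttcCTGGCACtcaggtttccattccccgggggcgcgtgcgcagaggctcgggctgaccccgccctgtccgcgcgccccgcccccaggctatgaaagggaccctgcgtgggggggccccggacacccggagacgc
Mobp, chr9:120149492-120149791, plus strand: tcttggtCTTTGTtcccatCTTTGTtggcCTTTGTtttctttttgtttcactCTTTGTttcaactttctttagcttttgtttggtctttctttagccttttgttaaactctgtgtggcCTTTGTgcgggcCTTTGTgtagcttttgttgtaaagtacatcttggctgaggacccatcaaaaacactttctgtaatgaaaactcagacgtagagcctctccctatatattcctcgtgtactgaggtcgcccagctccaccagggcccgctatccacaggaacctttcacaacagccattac
Mal, chr2:127656646-127656945, minus strand: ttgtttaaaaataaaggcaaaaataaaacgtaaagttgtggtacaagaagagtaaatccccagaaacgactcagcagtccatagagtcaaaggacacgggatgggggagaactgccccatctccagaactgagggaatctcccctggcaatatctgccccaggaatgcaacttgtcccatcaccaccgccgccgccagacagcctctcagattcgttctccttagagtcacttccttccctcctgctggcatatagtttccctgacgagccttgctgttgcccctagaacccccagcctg
Ugt8a, chr3:125938603-125938902, minus strand: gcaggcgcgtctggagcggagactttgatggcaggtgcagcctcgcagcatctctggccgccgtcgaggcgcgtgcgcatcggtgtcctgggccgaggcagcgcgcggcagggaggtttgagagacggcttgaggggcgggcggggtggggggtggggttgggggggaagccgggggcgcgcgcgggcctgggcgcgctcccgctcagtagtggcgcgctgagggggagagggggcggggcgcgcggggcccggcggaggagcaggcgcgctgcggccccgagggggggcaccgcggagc

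ACAAAG was found in a window of 4 of the 8 genes (Opalin, Cnp, Mobp and Mag) and CTGGNAC in 4 (Opalin, Cnp, Mag and Mog). Of all 32851 promoter windows, 18.7% held ACAAAG, 19.3% held CTGGNAC and 3.53% held both, and no match of one overlapped a match of the other in the windows of the 8 genes. The Mobp window held 6 ACAAAG matches, all on the opposite strand and read as CTTTGT in the printed sequence. Opalin held 2 and Cnp 1. Cldn11, Mal and Ugt8a held no match in these windows, which says only that these letters are not there. The windows also differed in base composition: Ugt8a had 40 CG steps and a GC content of 78.3%, against 4 steps and 54.3% for Opalin and 8 steps and 51.0% for Mal, beside medians of 7 steps and 52.7% over all windows.

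Other myelin and mature oligodendrocyte genes followed the same animals. Of 42 listed, 38 were measured, and none passed the threshold in either direction, with a median difference of 0.033. In 35 of the 38 control array 3 was the highest control, as in 47.8% of all genes, and in 30 labelled KO array 2 was the lowest labelled KO array, as in 35.01% of all genes. Both held for 28 of the 38, beside 19.4% of all genes. Their array means were 0.055, -0.16 and 0.32 in the labelled KO arrays and -0.13, -0.17 and 0.30 in the controls. The groups did not overlap for 3 of them, where 20.3% of all genes showed this. Apod, a lipid-binding secreted protein, read 11.51, 11.84 and 11.71 in the labelled KO arrays against 11.13, 10.90 and 11.27 in the controls, a difference of 0.59 ± 0.12 (SE; adjusted p = 0.0868). Tspan2, a tetraspanin of the oligodendrocyte membrane, read 11.54, 11.47 and 11.38 against 10.44, 10.91 and 11.28 in the controls, a difference of 0.59 ± 0.18 (SE; adjusted p = 0.199). Tppp, a tubulin-binding protein of oligodendrocytes, had every labelled KO array below every control and was at -0.29. Cryab, a small heat shock protein, was at -0.42 ± 0.16 and the connexin gene Gjc3 at 0.34 ± 0.13 (SE), with overlapping groups. Apod, Tspan2, Cryab and Gjc3 passed the threshold when arrays were weighted by their fit, with adjusted p from 0.0229 for Tspan2 to 0.0405 for Cryab. That fit called 5.60% of all genes, against 0.281% without weights.

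Genes of myelin lipid metabolism other than Ugt8a ranged from -0.15 to 0.38. All 19 listed were measured and none passed, with 11 above 0 and a median of 0.090. Galc, the lysosomal enzyme that breaks down the galactolipid made through Ugt8a, read 8.28, 8.56 and 8.54 in the labelled KO arrays, against 8.09, 8.25 and 7.90 in the controls. Its difference was 0.38 ± 0.12 (SE; adjusted p = 0.199), with no overlap between the groups. The groups also did not overlap for the fatty acid elongase gene Elovl1 at 0.19, the lipid transporter gene Abca2 at 0.18 and the saposin precursor gene Psap at 0.16, making 4 of 19, which is near the 20.3% seen over all genes. Psap was at 0.059 when the arrays were quantile-normalized again. The transcripts for the further steps of sulfatide and hydroxylated galactolipid synthesis, Gal3st1 and Fa2h, were at -0.058 and -0.12.

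Transcription factors of the lineage did not pass either, 0 of 16. Of these, 13 were above 0, where 47.3% of all genes were, and 3 below, with a median of 0.074. All labelled KO arrays lay above the controls for 2 and below them for 1, where 20.3% of all genes showed no overlap. Id4, which restrains oligodendrocyte differentiation, came nearest, at 10.96, 10.93 and 10.73 in the labelled KO arrays against 10.10, 10.39 and 10.21 in the controls. Its difference of 0.64 ± 0.11 (SE; adjusted p = 0.0542) passed in some alternatives, with adjusted p of 0.00653 in the fit weighted by array and 0.0385 without labelled KO array 3. Id4 is also expressed in astrocytes. Olig2, a factor that specifies the lineage, read 7.84, 7.60 and 7.59 against 7.92, 8.09 and 7.88 in the controls, at -0.29 ± 0.10 (SE; adjusted p = 0.257), and its partner Olig1 was at -0.21 ± 0.12. Sox10 and Myrf, which drive myelin genes, were at 0.020 ± 0.12 and 0.19 ± 0.17 (SE), and both were below 0 without labelled KO array 3, Sox10 also without control array 2.

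None of the 14 measured precursor genes passed. Of these, 4 were above 0, where 47.3% of all genes were, and 10 below, with a median of -0.12. The highest was Tmem100 at 0.35. Gpr17, a receptor of committed precursors, read 7.85, 7.84 and 7.77 in the labelled KO arrays, against 8.23, 8.24 and 8.01 in the controls, at -0.34 ± 0.093 (SE; adjusted p = 0.148), and it passed when arrays were weighted (adjusted p = 0.0269). Lhfpl3 at -0.29 and Cacng4 at -0.24 also had all labelled KO arrays below all controls, while Bcan, a matrix proteoglycan made by precursors and astrocytes, was at 0.23 with all labelled KO arrays above. Of the 14 genes, 4 had all labelled KO arrays below the controls and 1 had all above, where 20.3% of all genes showed no overlap. The growth factor receptor gene Pdgfra was at -0.30 ± 0.15 (SE; adjusted p = 0.403). The array means of the precursor list were -0.081, -0.16 and -0.049 in the labelled KO arrays and -0.054, -0.0024 and 0.057 in the controls, so labelled KO array 3 and control array 3 stood higher than the others of their group here too.

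Among 14 measured genes of newly formed oligodendrocytes, 1 passed the threshold, where 0.281% of all genes did. Cemip2, a transmembrane hyaluronidase also expressed by other cell types, rose 1.52-fold, to 8.28, 8.39 and 8.33 in the labelled KO arrays against 7.84, 7.68 and 7.67 in the controls, by 0.61 ± 0.088 (SE; adjusted p = 0.0413). Its adjusted p was between 0.122 and 0.187 with any 1 array other than labelled KO array 3 left out. Enpp6, an enzyme typical of newly formed oligodendrocytes, was at 0.11 with overlapping groups, and the list had a median of 0.037. Mpzl1, an adhesion protein, was at 0.26 ± 0.098 and the growth factor gene Bmp4 at 0.18 ± 0.084 (SE).

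Partners of myelin on the axon and its growth signals gave no call. Of 15 node and paranode genes 11 were below 0, with a median of -0.075. Cntnap1, the axonal protein that anchors the paranodal loops, read 10.14, 10.06 and 10.22 in the labelled KO arrays and 10.44, 10.57 and 10.33 in the controls, at -0.31 ± 0.096 (SE; adjusted p = 0.200). It passed when arrays were weighted (adjusted p = 0.0359). Ank3, the scaffold of nodes and axon initial segments, was at -0.19 with no overlap, while Nfasc was at -0.16 with overlap. The groups did not overlap for 2 of the 15 node and paranode genes, where 20.3% of all genes showed this. Of 9 myelin-associated inhibitors and receptors, 7 were below 0, with Lingo1 at -0.19, Rtn4rl2 at -0.16, the Nogo receptor gene Rtn4r at -0.14 and Rtn4, which encodes Nogo, at -0.12. Among 17 growth signals and receptors, the neuregulin receptor gene Erbb4 at 0.32, Nrg3 at 0.26 and the adhesion receptor gene Adgrg1 at 0.38 had all labelled KO arrays above the controls, and the kinase gene Mtor at -0.22 had all below. The median over those 17 was 0.063. Of them, 4 had all labelled KO arrays above the controls and 1 had all below, where 20.3% of all genes showed no overlap.

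Markers of other glia put the arrays of each group in the same order as the myelin genes, with other distances between them. Astrocyte markers, 12 of 12 measured, had array means of 0.12, 0.020 and 0.49 in the labelled KO arrays and -0.073, 0.0042 and 0.069 in the controls. The 11 measured of 12 microglia markers had -0.055, -0.20 and 0.73, against -0.14, -0.041 and 0.18 in the controls. Labelled KO array 2 was the lowest labelled KO array and control array 3 the highest control for both lists too. The mean of labelled KO array 3 was far above every other array for both, and for the 6 measured of 8 striatum genes, at 0.71 there, beside 0.087 and -0.044 in the other labelled KO arrays and -0.13 to 0.12 in the controls. Not every marker of these lists was highest in that array, and the microglia marker Tmem119 lay below all controls there. Control array 3, at 0.41 for the 9 myelin genes, was at 0.18 for microglia markers and 0.069 for astrocyte markers. The 11 excitatory neuron markers ran at -0.19, -0.14 and -0.29 in the labelled KO arrays and -0.039, 0.048 and -0.0081 in the controls. Lamp5 at -1.19 and Nrgn at -0.60 weigh heavily in these means. The median difference of the 11 was -0.13, with 8 below 0 and 3 above, up to 0.41 for Nptx1. The 6 measured peripheral myelin genes stood at -0.094, -0.086 and 0.14 in the labelled KO arrays and -0.21, -0.14 and 0.35 in the controls, and include Gjb1, which oligodendrocytes also express. Egr2 had the widest control range of the 6, reading 7.51, 7.87 and 9.58 there, and weighs heavily in the mean of control array 3. Ncmap and Dhh spanned only 0.057 and 0.026 over the controls. Whether the makeup of the dissected tissue had a part in the levels of the myelin genes was not tested.

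**Figure D5:**
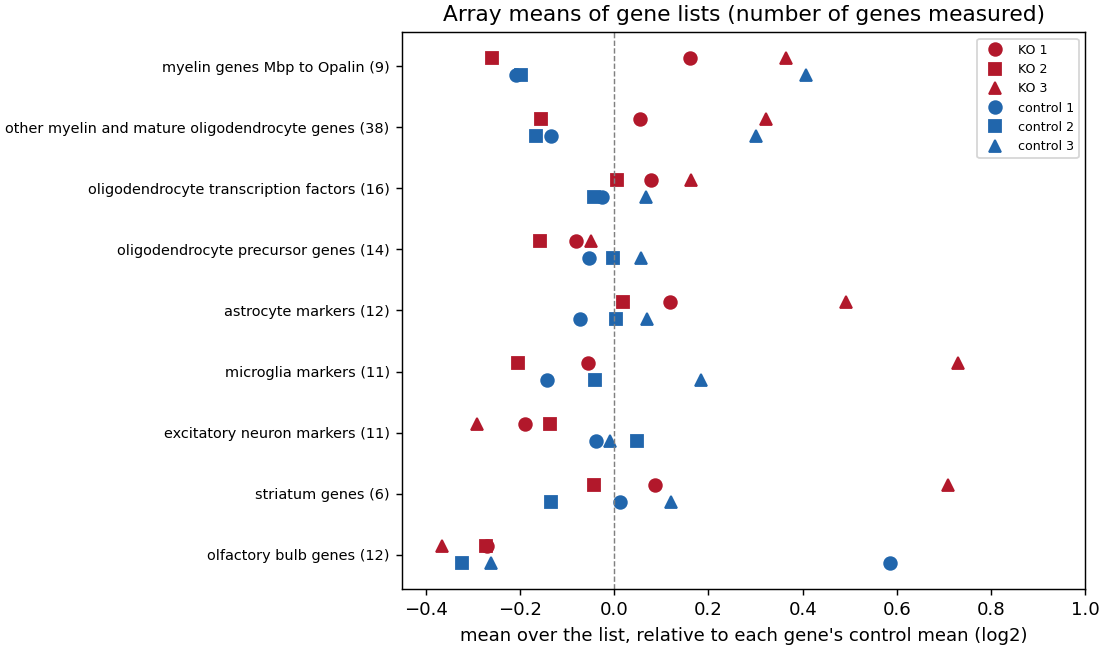
Mean log2 value of each gene list, relative to each gene's control mean (x axis), in the labelled Dicer KO arrays (red, upper of each row) and the controls (blue, lower), with symbols for arrays 1 to 3. Both myelin rows put labelled KO array 3 and control array 3 at the right, whereas astrocyte, microglia and striatum rows put labelled KO array 3 alone far to the right.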

How the data were processed

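Per the labels' protocols, 200 ng of total RNA from each animal was labelled with a whole-transcript kit for its own array. The deposited table holds log2 values made by the authors with RMA, a tool that stands with limma in the submitters' processing notes. Versions, background step and probe set definition: not given in the sources used here. The columns have close but not identical distributions, with medians from 7.13 to 7.22. Scaling arrays to such closeness would hide a shift of most genes. RMA shrinks differences of dim transcripts, and the small number of arrays limits precision.

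Of 35557 rows, 21789 carry 1 gene symbol in the platform's probe table. For 21698 of these the symbol was updated through the gene identifier in a RefSeq gene table of GRCm38.p6. The brightest probe set was used for the 999 genes with several, which left 19938 genes. Groups and array numbers came from the sample titles, which call the arrays biological replicates.

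The groups were compared in R 4.3.3 with limma 3.58.1 (group as the only term, two-sided, Benjamini-Hochberg over all genes, threshold 0.05) and tested on simulated data. With 3 arrays a group, the smallest two-sided p of an exact permutation test is 0.1, so none was run. The 9 genes, the 20 lists and the alternatives were chosen with earlier results of these data known. Genes named were the 9, a set of lineage genes whatever their values, those of smallest p per list (up to 4, or 2 for lists of other cells) and the 8 nearest profiles; Tppp, Gal3st1, Fa2h, Enpp6 and Eomes were named after their values were seen. Alternatives were an array-number block, arrays left out, scaling, a filter on dim genes, probe set means, every row tested, other priors, array weights, sex and a threshold of 0.1.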

Additional observations from a re-analysis of the deposited data

How the results depend on the processing

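In every alternative run, 0 of the 9 myelin genes passed. The median over them, 0.16 with all arrays, was -0.048 without labelled KO array 3 and control array 1 together, an alternative chosen after seeing the data, and between 0.015 and 0.30 with 1 array left out. With the array number as a replicate block, the median was 0.16, Opalin at 0.37 had an unadjusted p of 0.0357 (adjusted p = 0.223) and 215 genes were called over all genes. Same-numbered arrays of the groups deviated together with correlations of 0.0895 to 0.294 and 5 of 6 arrays correlated best with their own number, which does not show that the numbers pair animals; the cause was not tested.

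Over all genes, 56 were called, and 89 without array 3 of both groups, 178 without the dimmer genes, 0 with every row tested (3725 at an unadjusted p under 0.05), 1116 with array weights, 0 with the unmoderated test (2403), 0 with sex as a covariate (2292), 320 at the threshold of 0.1, 12 without labelled KO array 3 and control array 1, and 0 to 129 with 1 array left out. The cause was not tested. Signs turned for Mag without array 3 of both groups (0.011), for Mag (0.11) and Mobp (0.11) with array weights, and without labelled KO array 3 and control array 1 for Mbp (-0.031), Mog (-0.076), Cldn11 (-0.048), Sox10 (-0.051) and Myrf (-0.028). With 1 array left out, Mag ranged from -0.25 to 0.23, Mobp from -0.20 to 0.14, Sox10 from -0.072 to 0.093 and Myrf from -0.016 to 0.32. Signal over background is unknown, since no detection call was used.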

Other observations

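Lists of other cortical and neighbouring tissues gave a call for 1 gene, Nrgn, which encodes the postsynaptic protein neurogranin, where 0.281% of all genes were called. Nrgn read 11.27, 11.31 and 11.22 in the labelled KO arrays against 11.97, 11.90 and 11.76 in the controls. Its difference was -0.60 ± 0.088 (SE, limma adjusted p = 0.0413). With any 1 array other than labelled KO array 3 left out, Nrgn did not pass. Lamp5, another gene of the excitatory neuron list, was at -1.19 ± 0.20 (SE; adjusted p = 0.0548), and its adjusted p was 0.0444 with the array number as a block, 0.0477 without array 3 of both groups, 0.0354 without the dimmer genes, 0.0477 with a trended and robust prior, 0.00512 with array weights and 0.0365 without labelled KO array 3. Of the 12 astrocyte markers, 9 were above 0 and 3 below, with a median of 0.094 and Aldh1l1 lowest at -0.21. The connexin genes Gjb6 at 0.48 and Gja1 at 0.44 had the smallest p of the 12. Gfap was at 1.07 ± 0.33 (SE; adjusted p = 0.196), with every labelled KO array above every control and labelled KO array 3 highest. Gfap was at 0.67 without array 3 of both groups, where it passed (adjusted p = 0.0477), at 0.60 without labelled KO array 3 (adjusted p = 0.0550), and at up to 1.36 with another array left out.

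Endothelial markers had a median of 0.11 over 9 genes, with Pecam1 at 0.26 and Abcb1a at 0.24. GABAergic interneuron markers had a median of -0.017 over 12, with Cck at -0.38 and Vip at 0.32. Meningeal and fibroblast markers had a median of 0.20 over 8, with Igf2 at 0.49 and Slc6a13 at 0.28. Choroid plexus markers had a median of -0.0095 over 8, and Ttr, the transthyretin gene, read 9.85, 10.95 and 8.30 in the labelled KO arrays against 8.73, 8.34 and 8.18 in the controls. Olfactory bulb genes had a median of -0.23 over 12, with array means of -0.27, -0.27 and -0.37 in the labelled KO arrays and 0.58, -0.32 and -0.26 in the controls. Striatum genes had a median of 0.34 over 6, with Ppp1r1b at 0.29 and Tac1 at 0.39. Of the microglia markers, C1qc was at 0.59 and Tmem119 at -0.29. None of these passed.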
